A study of Mus musculus with 2 samples.

Results

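The Th17 program was followed through 9 genes among the 28009 that the deposited matrices list: the cytokines Il17a, Il17f and Il22, the nuclear receptor Rora, the receptors Il23r, Il1r1 and Ccr6, and the membrane proteins Tmem176a and Tmem176b. The genes were taken from a list of Th17 genes, chosen with earlier results of these data known. Counts of them beside all genes thus set a chosen list against genes not chosen. All 9 had at least 1 UMI (unique molecular identifier, 1 captured RNA molecule) in both libraries. IL-10-producing CD4+ T cells, Foxp3+ cells included, had been sorted by their eGFP from mice carrying an eGFP reporter of IL-10 and an mRFP reporter of Foxp3. Every mouse had received the anti-CD3 antibody 2C11, 15 µg into the peritoneum on day 0 and again on day 2, and was killed 4 h after the second injection, so no untreated cells were compared. Cells of the spleen and of the small intestine each gave 1 droplet library (10x Genomics Chromium), and how many mice were pooled for each is not given in the sources used here. With 1 library per tissue no difference was tested. Intervals (95%) cover counting error only, and differences between mice, sorts and libraries cannot be told apart from those between tissues.

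The spleen library held 1738 barcodes and the intestinal library 1474, with 0 barcodes in common. After cells of low quality and cells in G2/M were left out, 1468 spleen cells (median 5398 UMIs) and 1277 intestinal cells (median 3696 UMIs) remained. Cells were divided by the chemokine Ccl5, an effector product of cytotoxic and memory T cells, into those with under 1% of their UMIs from Ccl5 (Ccl5-low) and those with 1% or more (Ccl5-high). The intestine had 226 Ccl5-low cells (17.7%) and 1051 Ccl5-high cells, with medians of 3788.5 and 3682 UMIs. The spleen had 1354 Ccl5-low and 114 Ccl5-high cells. Because the tissues differed in depth, shares of cells were also given after each cell had been thinned to 2095 UMIs ("equal depth").

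Th17 cells are CD4+ T helper cells that defend mucosal surfaces by secreting IL-17A, IL-17F and IL-22, which act on epithelium and recruit neutrophils. Their program is driven in part by the nuclear receptor RORα (Rora), is reinforced by IL-1 and IL-23 through Il1r1 and Il23r, and includes CCR6, which leads cells toward its ligand CCL20. Tmem176a and Tmem176b encode related intracellular membrane proteins that are abundant in type 3 lymphocytes. Th17 cells can also produce IL-10, and injection of anti-CD3 is known to draw such cells to the small intestine. A UMI of Cd3d, Cd3e, Cd3g or Cd4 was found in 99.9% of spleen cells and 99.7% of intestinal cells. Despite the CD4+ sort, Cd8a or Cd8b1 was found in 204 of the 1277 intestinal cells (16.0%), 198 of them Ccl5-high and 6 Ccl5-low. Both genes together were in 121 intestinal cells. In the spleen 105 of the 1468 cells (7.15%) held Cd8b1, and Cd8a had no UMI.

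Il17a and Il17f are neighbours on mouse chromosome 1 (GRCm38), Il17a at chr1:20730905-20734496 on the plus strand and Il17f at chr1:20777146-20790617 on the minus strand, with 42649 bases between them. Their upstream sequences are shown because the cells that hold either gene are compared with the others further on. Both windows (RefSeq, GRCm38.p6) hold the 6 bases AGGTCA, the core of the element that RORα binds, or its reverse complement TGACCT, in capitals. Both strands were searched and no other motif was. The Il17a window is chr1:20730655-20730904, plus strand, with the match 120 bases before the start. The Il17f window is chr1:20784271-20784494, minus strand, with the match 58 bases before the start, and was cut to the 224 bases that no annotated Il17f exon covers. RefSeq starts Il17f inside the longer gene that GENCODE annotates, so this window lies within the GENCODE gene, in an intron of a longer transcript.
Il17a: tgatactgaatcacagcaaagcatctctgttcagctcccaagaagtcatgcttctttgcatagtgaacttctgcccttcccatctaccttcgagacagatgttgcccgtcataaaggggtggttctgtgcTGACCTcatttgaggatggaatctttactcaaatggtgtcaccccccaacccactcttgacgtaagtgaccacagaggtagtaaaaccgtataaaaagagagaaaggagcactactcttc
Il17f: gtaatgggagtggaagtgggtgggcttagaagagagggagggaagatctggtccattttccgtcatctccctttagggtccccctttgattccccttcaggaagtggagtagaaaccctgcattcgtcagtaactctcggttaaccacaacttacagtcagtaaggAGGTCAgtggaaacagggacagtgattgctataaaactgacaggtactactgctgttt
Of the 14 windows of 250 bases before a start of the 9 genes, 4 held a match, 1 each of Il17a, Il17f, Il23r and Ccr6, and 14.0% of the 32851 windows of all genes did. A match is a run of letters, not a measured binding site.

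Il17a RNA was at 48.3 CPM (UMIs per 1000000 UMIs of the group; interval 42.4 to 54.8) in the intestinal library and at 11.7 CPM (9.58 to 14.1) in the spleen library, from 243 and 107 UMIs. The log2 ratio of intestine to spleen was 2.05 (1.71 to 2.39). Il17f, its close relative, was at 90.4 CPM (82.3 to 99.1) in the intestine and 9.07 CPM (7.22 to 11.2) in the spleen, with a log2 ratio of 3.32 (2.98 to 3.67). Both IL-17 genes were thus higher in the intestine, on few cells. In spleen, 61 of the 107 Il17a UMIs came from 1 cell, and without the highest cell of each library the log2 ratio was 2.95 for Il17a and 3.81 for Il17f. Il22, which acts on epithelial cells, was at 31.2 CPM (26.5 to 36.5) in the intestine and 0.656 CPM (0.241 to 1.43) in the spleen, a log2 ratio of 5.57 (4.42 to 7.04). Only 6 Il22 UMIs were found in the spleen. Il22 (chr10:118204942-118210047) has a near-identical copy, Iltifb, 79581 bases away, and Cell Ranger counts no read that aligns equally well to both, so the level of Il22 is uncertain in both tissues.

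Rora (chr9:68653786-69388246), a nuclear receptor of many T cell subsets, was at 92 CPM (83.8 to 101) in the intestine and 34.6 CPM (30.9 to 38.7) in the spleen, a log2 ratio of 1.41 (1.20 to 1.62). The receptors went no one way. Il23r (chr6:67422932-67491855) had 10 UMIs in each library, and its log2 ratio was 0.86 (-0.56 to 2.28). Il1r1 (chr1:40225080-40317257) was at 5.56 CPM (3.70 to 8.04) in the intestine and 5.57 CPM (4.15 to 7.33) in the spleen, with a log2 ratio of -0.00 (-0.72 to 0.69). Ccr6 (chr17:8236043-8257141) was lower in the intestine, 3.18 CPM (1.82 to 5.16) against 7.65 CPM (5.96 to 9.66), a log2 ratio of -1.27 (-2.15 to -0.47). That call rested on 16 intestinal UMIs and was lost with all barcodes (-0.78) and with the G2/M cells kept (-0.73).

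Tmem176a (chr6:48840919-48847071, plus strand) and Tmem176b (chr6:48833818-48841496, minus strand) lie head to head and share 578 bases. Tmem176a was at 42.1 CPM (36.6 to 48.2) in the intestine and 9.62 CPM (7.71 to 11.8) in the spleen, a log2 ratio of 2.13 (1.77 to 2.51). Tmem176b was at 54.3 CPM (48.0 to 61.1) and 6.23 CPM (4.72 to 8.07), a log2 ratio of 3.12 (2.71 to 3.56). Of the 9 genes, 6 were at least 2-fold higher in the intestine and 1 was at least 2-fold lower. Among 10356 genes with 20 or more UMIs, 12.6% were at least 2-fold higher and 14.5% at least 2-fold lower. The median log2 ratio was 2.05 over the 9 genes and -0.01 over all genes.

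Within Ccl5-low cells the tissues were further apart. These were 92.2% of the spleen cells but 17.7% of the intestinal cells, so the limit left the spleen group nearly whole and took a small part of the intestine. Il17a was at 253 CPM (222 to 287) in intestinal and 12.5 CPM (10.3 to 15.1) in spleen cells, a log2 ratio of 4.34, and Il17f at 478 CPM (435 to 524) and 9.70 CPM (7.73 to 12), a log2 ratio of 5.62. Tmem176b, at 262 and 6.31 CPM, had a log2 ratio of 5.38. Il1r1, equal between the whole libraries, was at 23.2 CPM (14.5 to 35.1) in the intestinal and 5.96 CPM (4.44 to 7.84) in the spleen Ccl5-low cells, a log2 ratio of 1.96. Ccr6 changed sides, with 15.8 CPM (8.84 to 26.0) in intestine and 8.18 CPM (6.38 to 10.3) in spleen, a log2 ratio of 0.95 (0.04 to 1.77). Il23r, with 6 and 10 UMIs, was under the minimum of 20. Of the 8 genes measured, 7 were at least 2-fold higher in the intestinal cells and 0 lower, against 12.9% and 10.4% of all genes. The median log2 ratio was 4.35, and 0.06 over all genes.

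**Figure D1:**
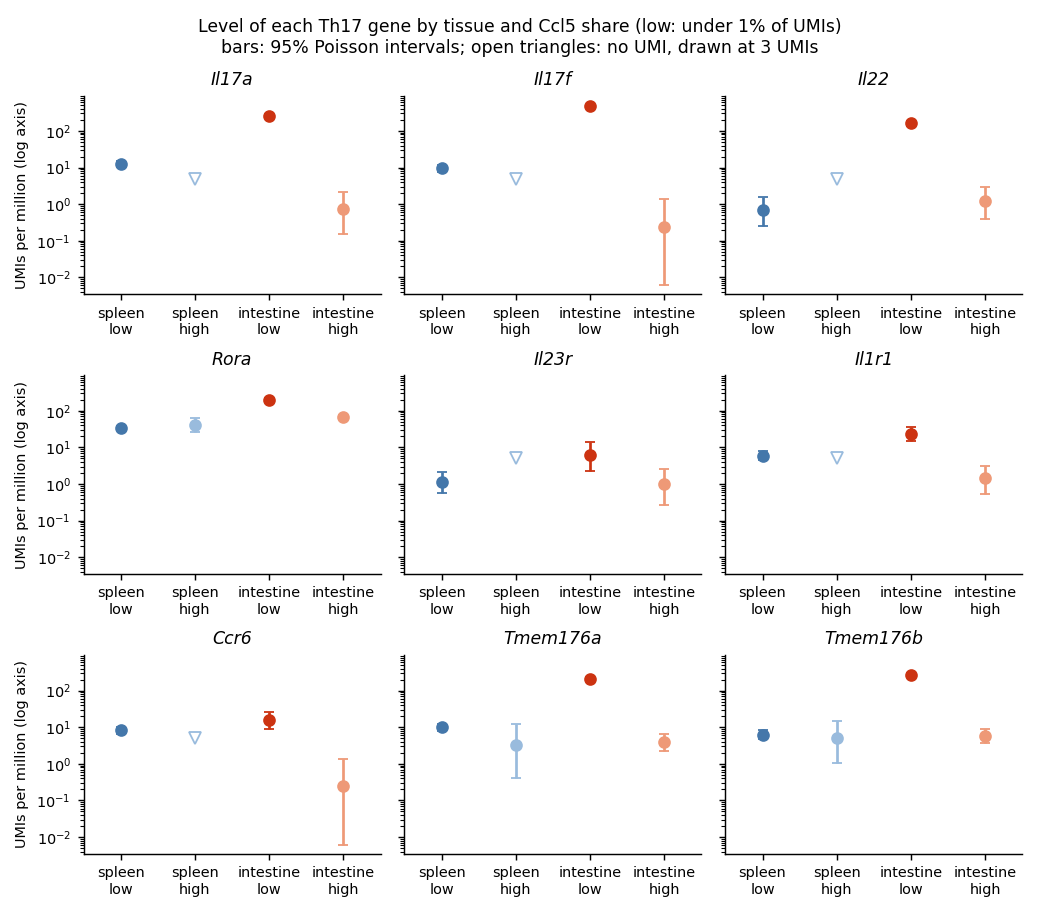
Level of each Th17 gene (CPM, log axis) in Ccl5-low and Ccl5-high cells of spleen and small intestine, 1 library per tissue, with 95% Poisson intervals and with open triangles at the level of 3 UMIs where no UMI was found. Il17a, Il17f, Il22, Tmem176a and Tmem176b stood highest in intestinal Ccl5-low cells, from 160 CPM for Il22 to 478 CPM for Il17f, and at under 6 CPM in intestinal Ccl5-high cells.

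In the small intestine the RNA of the IL-17 genes lay almost wholly in the Ccl5-low cells. These made up 17.7% of the cells but held 98.8% of the Il17a UMIs, 99.8% of the Il17f UMIs and 96.8% of the Il22 UMIs. The shares were 93.8% for Ccr6, 92.5% for Tmem176a and 91.2% for Tmem176b. Il1r1 (78.6%), Il23r (6 of 10 UMIs) and Rora (40.8%) were less restricted, and Il10 UMIs, at 20.1%, were divided much as the cells were. Of the 7 genes over the minimum, 7 were at least 2-fold higher in Ccl5-low than in Ccl5-high cells and 0 lower, where 7.77% of 8775 genes were higher and 4.81% lower. A gene found in 1 group alone passes the minimum through that group, so this count adds nothing to the levels themselves. Il17a had a log2 ratio of 8.43 (6.86 to 10.71), on 3 UMIs in the Ccl5-high cells. Rora had the smallest, 1.57 (1.29 to 1.84), and in Ccl5-high cells it was still at 67.1 CPM (59.4 to 75.6). In spleen Ccl5-high cells 6 of the 9 genes had no UMI. With 114 cells the interval still allows up to 3.18% of cells with a UMI, and it sets no limit on cells that express a gene but gave no UMI.

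Shares of cells followed the levels. Il17a was found in 49 of 226 intestinal Ccl5-low cells (21.7%, 16.5 to 27.6; 20.2% at equal depth) and in 3 of 1051 Ccl5-high cells (0.285%). Free RNA can put a UMI into a cell that does not make it, and in the intestinal cells with both Cd8a and Cd8b1, a population of CD8 type that should largely lack IL-17A, 1 of 121 cells held an Il17a UMI (0.826%, median depth 4452 UMIs). Without cells holding Cd8a or Cd8b1, 2 of 853 Ccl5-high cells held it. The Ccl5-high share was below that of the reference, which rests on 1 cell, and is not read as expression. In the spleen, Il17a was found in 14 of 1468 cells (0.954%, 0.522 to 1.59). No reference for free RNA is given for the spleen, so its share was not set against background. Il17f was found in 26 intestinal Ccl5-low cells (11.5%, 7.65 to 16.4) and 5 spleen cells (0.341%), and Il22 in 25 (11.1%, 7.29 to 15.9) and 4 (0.272%).

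Tmem176b, the most widely found of the genes apart from Rora, was in 86 of the 226 cells (38.1%, 31.7 to 44.7; 31% at equal depth). It was in 19 Ccl5-high cells (1.81%) and in 1 of the 121 cells with Cd8a and Cd8b1. Tmem176a was in 69 Ccl5-low cells (30.5%, 24.6 to 37.0) and 15 Ccl5-high cells (1.43%). Rora was in 101 Ccl5-low cells (44.7%, 38.1 to 51.4; 27.1% at equal depth) but also in 218 Ccl5-high cells (20.7%; 13.2% at equal depth) and 240 spleen cells (16.3%; 8.34% at equal depth). With 14.0% of the Cd8a and Cd8b1 cells holding it, Rora marked no one group. The receptors were sparse: Il1r1 was in 18 Ccl5-low cells (7.96%), Ccr6 in 13 (5.75%) and Il23r in 6 (2.65%).

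The share of cells with each gene was also followed over finer steps of Ccl5. Il17a was in 30.0% of the 100 cells with under 0.1% of UMIs from Ccl5, in 20.5% of the 88 cells from 0.1% to 0.5%, and in 2.63% of the 38 cells from 0.5% to 1%. None of the 82 cells from 1% to 2% held it. Tmem176b went from 52.0% over 31.8% and 15.8% to 7.32% of cells in the same 4 steps. The share of both was thus lower in the step just under the limit of 1% than in the lowest step, and 120 cells lay between 0.5% and 2%. Rora was in 50 of the 100 cells of the lowest step and had 39.8%, 42.1% and 31.7% of cells in the next 3 and 19.4% in the 639 cells with 5% or more.

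**Figure D2:**
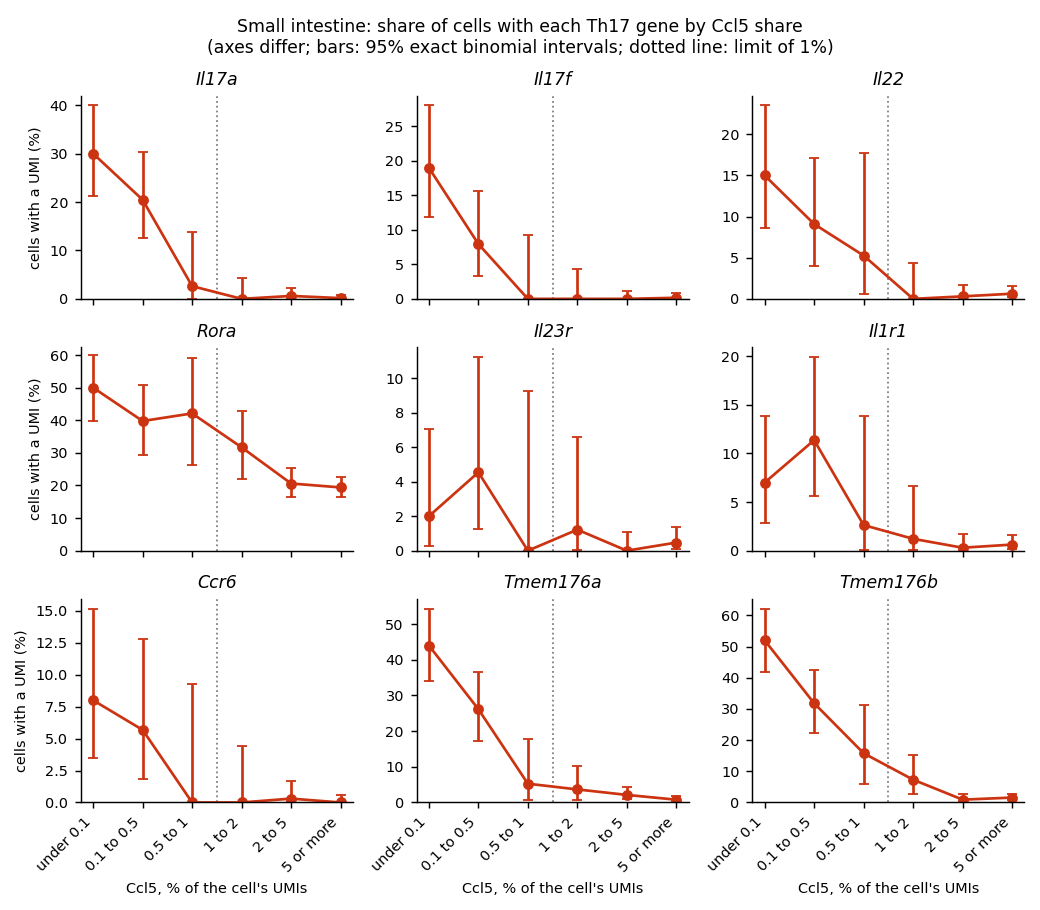
Percentage of small-intestinal cells with a UMI of each Th17 gene (vertical axes differ) against the share of the cell's UMIs from Ccl5, with 95% exact binomial intervals and a dotted line at the limit of 1%. Il17a stood at 30.0% in the lowest step and at 2.63% just under the limit, whereas Rora was still at 19.4% of cells in the highest step.

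Levels per cell were more uneven for the cytokines than for the other genes. Among the 49 intestinal Ccl5-low cells with Il17a, the highest held 48 UMIs and the 5 highest held 40.8% of all its UMIs. For Il17f the highest cell held 123 UMIs and the 5 highest 78.4%, and for Il22 they held 33 UMIs and 63.8%. Rora, in contrast, had at most 9 UMIs in a cell, Tmem176a 8 and Tmem176b 10. A single intestinal cell of 19521 UMIs held 48 Il17a, 55 Il17f and 33 Il22 UMIs together with 10 Il10 UMIs and 6 Cd4 UMIs. It also held 1 Foxp3 UMI and 3 UMIs of Kit, a marker of group 3 innate lymphoid cells. Its depth was far above the Ccl5-low median of 3788.5 UMIs. Another intestinal cell, of 4556 UMIs, held 123 Il17f and 16 Il17a UMIs. In the spleen, the cell with 61 Il17a UMIs held no Il17f and 41 Il10 UMIs among its 18351.

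Il17a and Il17f were found both in the same cells and in separate ones. Of the 226 intestinal Ccl5-low cells, 56 (24.8%, 19.3 to 30.9; 23.6% at equal depth) held a UMI of either gene. Of these, 30 held Il17a alone, 7 held Il17f alone and 19 held both. The 19 cells with both held 95.8% of the Il17f UMIs and 58.3% of the Il17a UMIs, and Il17f was the higher in 13 of them and Il17a in 5. In the spleen, 17 of 1354 Ccl5-low cells (1.26%, 0.733 to 2.0) held either, 12 of them Il17a alone, 3 Il17f alone and 2 both. Il22 was found in 14 of the 56 intestinal cells with Il17a or Il17f and in 11 of the 170 without. Any of the 3 cytokines was in 67 intestinal Ccl5-low cells, with 1 cytokine in 42, 2 in 17 and all 3 in 8.

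**Figure D3:**
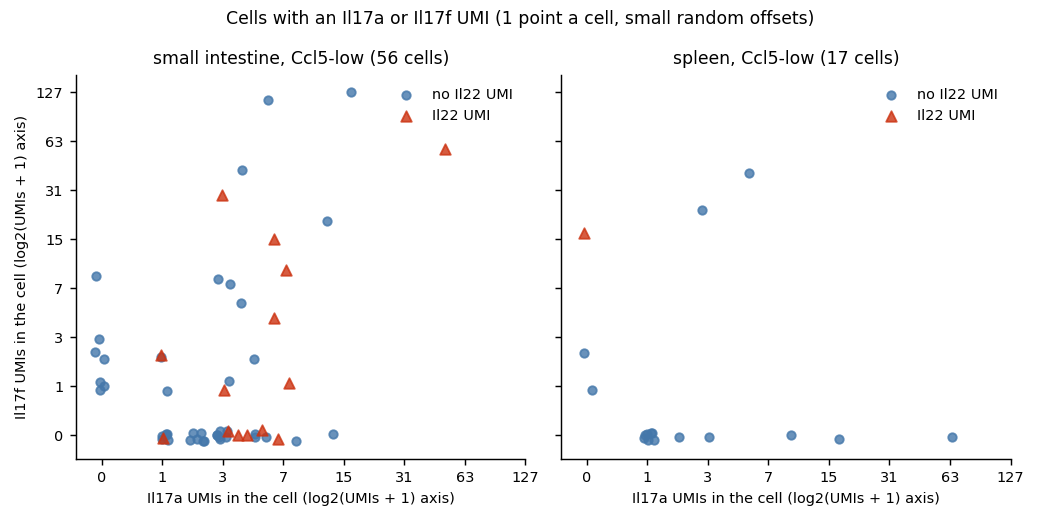
Il17a against Il17f UMIs (both axes log2 of UMIs + 1) in each Ccl5-low cell with either gene, for small intestine (56 cells) and spleen (17 cells), with triangles for cells that also held Il22. Points along either axis held 1 of the genes alone, and the 19 intestinal cells away from both axes included the cells with 123 and 109 Il17f UMIs.

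For each of the 36 pairs of the 9 genes, the cells holding both were set against the number that the product of their shares gives. In intestinal Ccl5-low cells 32 pairs had at least 1 cell expected. Of these, 17 reached 2 times the expected number and 31 were above it, with a median ratio of 2.03. Pairs of 1 of the 9 genes with any other gene reached 2 times in 6.77% of cases. At equal depth 10 of 25 pairs reached it, with a median ratio of 1.83, against 5.03%. Both percentages include genes found in most cells, whose ratio cannot reach 2, and were not matched for abundance. Deep cells hold more of every gene, and the equal-depth values take that out of the counts.

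Il17a and Il17f were together in 19 cells, where 5.64 were expected (ratio 3.37; 3.38 at equal depth). Il17a and Il22 shared 14 cells for 5.42 expected (2.58), and Il17f and Il22 shared 8 for 2.88 (2.78). The cytokines also met the Tmem176 genes: Il17a and Tmem176a shared 38 cells for 15 expected (2.54; 2.18 at equal depth), and Il17a and Tmem176b 43 for 18.7 (2.31; 2.20 at equal depth). Tmem176a and Tmem176b were together in 65 cells for 26.3 expected (2.48; 2.64 at equal depth), so 65 of the 69 cells with Tmem176a held its neighbour as well. The chemokine receptor Ccr6 shared 8 cells with Il17a (2.84) and 6 with Il22 (4.17), on 13 Ccr6 cells in all. Rora had ratios from 0.99 to 1.55 over its pairs. A ratio cannot exceed the inverse of a gene's share, so Rora, in 44.7% of the cells, had less room than the sparser genes. It was in 67.9% of the cells with Il17a or Il17f and in 37.1% of those without (41.8% and 21.6% at equal depth).

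**Figure D4:**
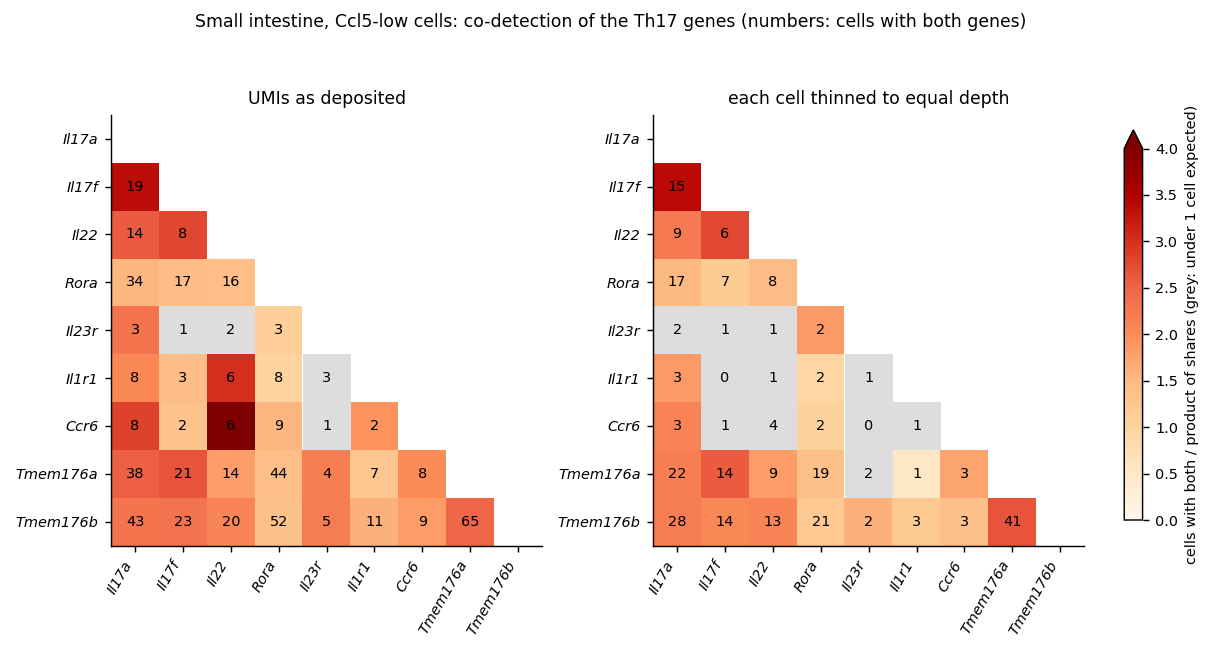
Co-detection of the Th17 genes in small-intestinal Ccl5-low cells, as deposited (left, 226 cells) and with each cell thinned to 2095 UMIs (right, 203 cells). Numbers are cells with both genes, colour is their ratio to the product of the shares and grey marks pairs with under 1 cell expected. The pair Il17a and Il17f (19 cells, 3.37 times) stands high on both sides. The Rora entries stay pale, and the large share of cells with Rora limits their ratios.

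The spleen had fewer pairs to judge. There, 11 of the 36 pairs had at least 1 cell expected and 8 reached 2 times, with a median of 2.64, against 8.74% of pairs with any other gene. At equal depth 2 of 3 did, against 5.60%. The spleen percentages were not matched for abundance either. Counted per cell, 74 of 226 intestinal Ccl5-low cells (32.7%, 26.7 to 39.3; 24.1% at equal depth) held at least 3 of the 9 genes, and 84 (37.2%) held none. Of the Ccl5-high cells, 4 (0.381%) held at least 3 and 797 (75.8%) held none. In the spleen 19 Ccl5-low cells (1.40%) held at least 3.

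Il10 was found with and without the Th17 genes at about the same rate in the intestine. Il17a and Il10 shared 39 intestinal Ccl5-low cells where 36.4 were expected (ratio 1.07), and Il17f and Il10 shared 22 for 19.3 (1.14). The ratios with Il10 were 0.97 for Il22, 1.05 for Rora, 0.99 for Tmem176a and for Tmem176b, and highest for Il1r1, with 17 of 18 cells (1.27). Il10 was in 168 of the 226 cells, so these ratios had little room above 1. Of the 56 cells with Il17a or Il17f, 44 held Il10 (78.6%, 65.6 to 88.4), and of the 170 without, 124 did (72.9%, 65.6 to 79.5). At equal depth the shares were 61.8% and 60.8%. The Il10 level was 612 CPM in the former and 646 CPM in the latter, a log2 ratio of -0.08 (-0.34 to 0.18). Il10 was the gene of the sort, and no cells sorted without it were compared.

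In the spleen Il10 was higher beside Il17, in a group of 17 cells chosen by any Il17a or Il17f UMI. Of the 14 cells with Il17a, 7 held a single UMI of it, as did 1 of the 5 cells with Il17f. At equal depth 10 of the 17 still held Il17a or Il17f, and free RNA was not set apart. Of 17 Ccl5-low cells with Il17a or Il17f, 15 held Il10 (88.2%, 63.6 to 98.5), and 859 of the 1337 without did (64.2%). At equal depth the shares were 70.6% (44.0 to 89.7) and 43.1% (40.4 to 45.8). The Il10 level was 959 against 462 CPM, a log2 ratio of 1.05 (0.80 to 1.29), and 0.77 (0.47 to 1.05) without the highest cell of each group. The cells with Il17 were deeper, with a median of 6516 against 5445 UMIs, and had more RNA of the cycling genes (1178 against 521 CPM), whose part in the result was not tested.

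What cells with Il17a or Il17f also held was measured over the other 7 genes, in cells of similar depth (medians of 4137 UMIs with Il17 and 3678.5 without). In the intestinal Ccl5-low cells Tmem176a was at 450 CPM in the 56 cells with Il17 and 99.9 CPM in the 170 without, a log2 ratio of 2.17 (1.73 to 2.62). Tmem176b was at 592 and 118 CPM, a log2 ratio of 2.33 (1.93 to 2.73). Either Tmem176 gene was in 53 of the 56 cells with Il17 (94.6%, 85.1 to 98.9; 81.8% at equal depth) and in 37 of the 170 without (21.8%, 15.8 to 28.7; 18.2% at equal depth). Il22 had a log2 ratio of 1.38 (0.91 to 1.86), on 81 and 71 UMIs, and -0.02 once cells with Foxp3 UMIs were left out, the cell with 33 Il22 UMIs among them. Rora, at 0.65 (0.22 to 1.08), and Il1r1, at 0.93 (-0.44 to 2.27), were under 2-fold, and Ccr6, with 10 and 5 UMIs, and Il23r, with 3 and 3, were under the minimum. Thus 3 of the 5 measured genes were at least 2-fold higher and 0 lower, against 5.79% and 5.77% of all genes, and the median log2 ratio was 1.38 against 0.07 over all genes.

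In the spleen all 5 of the measured genes were higher in the 17 cells with Il17, where 11.1% of all genes were higher and 7.83% lower. Some of these 17 cells held a single Il17 UMI, as given above, and the part of free RNA was not tested. Ccr6 had the largest log2 ratio, 4.28 (3.41 to 5.07), on 18 UMIs against 52 in the other cells. Il1r1 followed with 3.94 (2.83 to 4.93), on 11 against 40. Tmem176a was at 2.52 (1.26 to 3.57), on 8 against 78, and Tmem176b at 2.51 (0.83 to 3.83), on 5 against 49. Rora was at 1.60 (0.74 to 2.35). The median log2 ratio was 2.52, and 0.00 over all genes. Either Tmem176 gene was in 5 of the 17 cells (29.4%, 10.3 to 56.0) and in 57 of the 1337 others (4.26%, 3.24 to 5.49). Without the highest cell of each group the log2 ratio was 2.23 (0.56 to 3.53) for Tmem176a. For Tmem176b it was 2.07 (-0.26 to 3.71), an interval that includes 0. The difference between the tissues in these ratios was not tested.

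**Figure D5:**
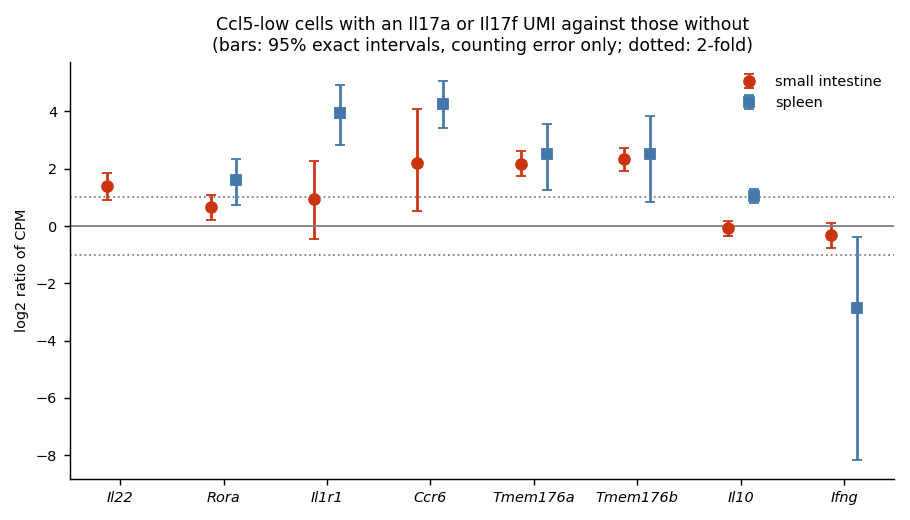
Log2 ratio of CPM between Ccl5-low cells with and without an Il17a or Il17f UMI, in small intestine (circles, 56 against 170 cells) and spleen (squares, 17 against 1337 cells), with 95% exact intervals and dotted lines at 2-fold. The points of Tmem176a and Tmem176b lie above 2-fold in both tissues, but the spleen interval of Tmem176b reaches below 2-fold. Il10 lies near 0 in the intestine (-0.08) and near 1 in the spleen (1.05).

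The wider Th17 pathway was followed over a list of 46 further genes, drawn up with earlier results of these data known. Between the tissues, 14 of 42 measured pathway genes were at least 2-fold higher in the intestine and 12 lower, where 12.6% of all genes were higher and 14.5% lower. Among the regulators, Nfkbiz, an inhibitor of kappa B family protein needed for Th17 cytokines, was higher by 2.22 (2.06 to 2.39) on the log2 scale, and Irf4 was lower, with -1.99 (-2.31 to -1.68). Il6ra, the IL-6 receptor, was at 1.99 CPM against 44.0 CPM in the spleen, a log2 ratio of -4.47 (-5.54 to -3.58). Ccl20, the ligand of CCR6, was at 26.0 CPM in the intestine on 131 UMIs and had 1 UMI in the spleen. In the intestine 10 of 39 pathway genes were higher in Ccl5-low cells and 2 lower, against 7.77% and 4.81% of all genes. Ccl20 (128 against 3 UMIs), Il17re (24 against 0 UMIs), Il7r, with a log2 ratio of 2.20 (1.87 to 2.52), and Serpinb1a, with 2.11 (1.91 to 2.31), were among the 10.

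Beside Il17 RNA the pathway list was divided. In intestinal Ccl5-low cells with Il17, 6 of 35 genes were at least 2-fold higher, among them Irf4, Runx1, Il17re, Ccl20 and Serpinb1a, and 4 lower (Il6st, Il21r, Socs3 and Slamf6), against 5.79% and 5.77% of all genes. Socs3, an inhibitor of STAT3 signalling, was at -2.04 (-2.69 to -1.46) on the log2 scale. In spleen cells 5 of 40 were higher and 6 lower, where 11.1% and 7.83% of all genes were, so the higher count is near the share over all genes. On the log2 scale Serpinb1a was at 2.16 (1.57 to 2.70), Socs3 at -2.30 (-3.51 to -1.32) and Slamf6 at -1.19 (-2.33 to -0.26). The median over the list was 0.08 in the intestine and 0.12 in the spleen. Serpinb1a, a protease inhibitor, was among the genes at least 2-fold higher in both tissues, and Il6st, Socs3 and Slamf6 were at least 2-fold lower in both.

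The genes whose pattern was most like that of Il17a and Il17f were taken by the ratio of CPM between the 56 intestinal Ccl5-low cells with Il17 and the 170 without. The 10 highest were Blk, Cxcl2, Rrm2, Cpe, Cxcl3, Selm, Hells, Orc6, Smc2 and Mcm3. Blk, a SRC family kinase, had a log2 ratio of 4.0 on 21 against 3 UMIs, from 12 of the 56 cells. Cpe, a carboxypeptidase, had 3.49 on 69 against 14 UMIs, from 28 of the 56 cells, and in the spleen it was at 107 CPM beside Il17 and 2.5 CPM elsewhere. For Cxcl2, 28 of the 29 UMIs came from 1 cell. Rrm2, Hells, Orc6, Smc2 and Mcm3 act in DNA replication or chromosome structure, and the cycling marker list was at 464 CPM in the cells with Il17 and 154 CPM in those without. Few of the 56 cells held them: 8 for Rrm2, 6 for Hells, 9 for Orc6, 10 for Smc2 and 11 for Mcm3. For Rrm2, 20 of the 62 UMIs came from 1 cell. The 5 lowest were Gzma, at -2.53, Socs3, Ms4a4b, Ccl5 and Ctla2a, and Ccl5 had itself set the group.

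Markers of other cells were measured in the same 56 cells. All 56 held a UMI of at least 1 of Cd3d, Cd3e, Cd3g and Cd4, though some held no Cd4 UMI. Cd8a and Cd8b1 were at 0. Group 3 innate lymphoid cells can also make IL-17 and IL-22, and 6 genes were listed for them, not all particular to them. Of these 6, Kit was found in 9 cells (16.1%, on 11 UMIs) and Ncr1, Il1rl1, Klrb1b, Tyrobp and Fcer1g were at 0. In the 170 other cells the list was found in 8 (4.71%), counted over Kit, Il1rl1 and Fcer1g together, so Kit alone was not compared. For gamma delta T cells 2 of 9 listed markers were analysed. Blk was in 12 of the 56 cells (21.4%) and 3 of the 170 (1.76%), and Sox13 was at 0. T cell receptor constant genes were not analysed here, so the lineage of these cells was not tested. The Treg list was at 163 CPM in the cells with Il17 and 257 CPM in those without, the Th1 list at 284 and 519 CPM, the Th2 list at 20.8 and 84.7 CPM, and the Tfh list at 3.46 and 46.9 CPM. The myeloid list was at 211 and 632 CPM, with Lyz2, Csf1r and Itgax at 0, and the B cell list at 6.92 and 54.5 CPM. By share of cells the Treg list went the other way, with 50% beside Il17 and 40.6% without. The myeloid list was in similar shares, 55.4% and 57.6%. The Th1, Th2, Tfh and B cell lists were in a lower share of the cells with Il17, as by CPM. The part of cells of other types in the results above was not tested.

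The 197 intestinal barcodes left out for quality or G2/M held Il17a or Il17f as well, in 10 barcodes (5.08%, 2.46 to 9.14), and the 270 left out in the spleen held it in 2 (0.741%, 0.0898 to 2.65). With Foxp3, the regulator of Treg cells, Il17a was found in 3 of the 22 intestinal Ccl5-low cells with a Foxp3 UMI, where 4.77 cells were expected. In UMIs Il17a had a log2 ratio of 0.99 (0.51 to 1.44) in cells with against without Foxp3, and of -3.26 (-6.32 to -1.39) once the highest cell of each group was left out. The first value rested on the 1 cell with 48 Il17a UMIs, which held a single Foxp3 UMI. Tmem176a was at -1.84 (-3.18 to -0.77) with Foxp3, on 7 UMIs, while Il1r1 was at 1.5 (-0.14 to 2.92), on 6 UMIs. Il22 was at 1.84 (1.32 to 2.34). Il22 with Foxp3 came from 2 cells, 33 of its 49 UMIs from the cell with 48 Il17a UMIs. In the spleen Il17a was at -2.39 (-3.74 to -1.29) with Foxp3, on 7 against 100 UMIs.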

How the data were processed

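IL-10+ CD4+ T cells of mouse spleen and small intestine were measured as 1 droplet 3' RNA library per tissue. The authors trimmed reads with Trimmomatic and aligned and counted them with Cell Ranger (per the labels; versions are not given in the sources used here). The submitters' processing notes name mm10 and mm8, and the study's methods name mm10. The deposited files hold raw UMI counts per gene and barcode, not normalized, 11103530 UMIs for spleen and 5693395 for small intestine.

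From these counts, barcodes with few UMIs or few detected genes (both on a log scale) or a high mitochondrial share, beyond 3 median absolute deviations, were left out, as were G2/M cells by cyclone (scran 1.30.0, R 4.3.3), which left 1468 and 1277 cells. Scrublet (scanpy 1.11.5) called 4 doublets per library, and doublets were kept. UMIs were summed over the cells of a group and given as CPM with exact Poisson intervals, ratios with exact conditional binomial intervals, and shares with Clopper-Pearson intervals. A gene was compared at 20 UMIs or more in both groups together and called at 2-fold. Levels of 3 UMIs or fewer in both groups gave no ratio, and a ratio against 0 UMIs is a bound taken at 3 UMIs. No p-value was computed, since each tissue had 1 library and cells are not replicates. Co-detection was set against the product of shares for pairs with at least 1 cell expected. Positions come from GENCODE on GRCm38, and upstream windows from RefSeq on GRCm38.p6, which held all 9 genes.

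The members, the lists and the comparisons were chosen with earlier results of these data known. Genes named are the 9 members, Il10, Foxp3 and other lineage genes, the 46 pathway genes, and the 10 highest and 5 lowest genes by CPM ratio beside Il17 (20 UMIs or more in the cells with Il17 for the highest, in both groups for the lowest). Single cells were singled out after their values were seen. Marker lists were read for T cell, CD8, gamma delta T, group 3 innate lymphoid, NKT or MAIT, Treg, Th1, Th2, Tfh, B, myeloid, epithelial and cycling genes. In intestinal Ccl5-low cells the NKT or MAIT list was in 2 cells with Il17 and 0 without. The epithelial list was there in 1 and 3 cells. In intestinal Ccl5-high cells these 2 lists were in 3 and 39 cells. Of the listed markers, 10 T cell receptor genes were not matched and were not used here. Results on some genes are not reported here. Alternatives were all barcodes, G2/M cells kept, equal depth, doublets, Foxp3 cells or Cd8 cells left out, Ccl5 limits of 0.5% and 2%, TMM factors (edgeR 4.0.16), totals without Ccl5 and granzymes, means over cells, other minimum UMIs, and other detection limits. Leaving out the highest cell of each group was added after the data had been seen.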

Additional observations from a re-analysis of the deposited data

Results flagged for a closer look

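In the small intestine Il17a had a log2 ratio of 0.99 between Ccl5-low cells with and without a Foxp3 UMI, and in the spleen the same ratio was -2.39, so the tissues lay on opposite sides. The difference between them was not tested, with 1 library per tissue. The intestinal value came from 3 cells, 1 of which held 48 of the 50 UMIs, and without the highest cell of each group the ratio was -3.26 (-6.32 to -1.39) in the intestine and -1.84 in the spleen, both on the same side.

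The barcodes left out for quality or as G2/M cells, which enter the comparisons only in the alternatives that keep them, also held Il17 RNA. In the small intestine 10 of 197 such barcodes held 129 UMIs of Il17a and Il17f together. In the spleen 2 of 270 held 12 UMIs. These sums are above the limit of 3 UMIs that a count of 0 allows.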

How the results depend on the processing

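With 6 of 9 genes at least 2-fold higher in the intestine than in the spleen, the count was 6 under each alternative run. In Ccl5-low against Ccl5-high cells it was 7, with 6 to 9 across alternatives. The count of pairs at 2 times the product of shares was 17, and it was 10 at equal depth, 11 at a Ccl5 limit of 0.5% and 11 when 2 UMIs were needed for detection, which left 25 and 15 pairs to judge at equal depth and at 2 UMIs. Beside Il17 the count of 3 genes became 5 with all barcodes and 5 with G2/M cells kept. The share of Ccl5-low cells with Il17a or Il17f, 24.8%, was 18.2% at a Ccl5 limit of 2% and 16.4% when 3 UMIs were needed. The Il10 ratio beside Il17 ran from -0.22 to 0.17. Il22 beside Il17 changed sides, to -0.019, without Foxp3 cells. Of 263 recomputed ratios of single genes, 244 lay within the interval first given. Of 219 that were first at least 2-fold, with the minimum of UMIs for a call not applied, 216 were still at least 2-fold. The other 3 were Ccr6 between tissues, at -0.78 and -0.73, and Il22. Causes were not tested beyond the fewer cells or pairs that an alternative leaves. No paired analysis was possible because each tissue gave 1 library. Depth limits the sparse genes: Il23r, Il1r1 and Ccr6 had 10 to 70 UMIs per library, and Il22 had 6 in the spleen.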

Other observations

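In intestinal Ccl5-low cells Il17a and Ifng, the Th1 cytokine, shared 15 cells where 15.2 were expected, and Il22 and Ifng shared 11 where 7.74 were expected. The level of Ifng was 211 CPM in cells with Il17a or Il17f and 263 CPM in those without, a log2 ratio of -0.32 (-0.76 to 0.11). Gzmb, which encodes granzyme B, was in 195 of the 226 cells, too many for co-detection to show a difference. Its level was 2246 CPM beside Il17 and 5221 CPM without, a log2 ratio of -1.22 (-1.34 to -1.10), and in the spleen 239.7 and 844 CPM, a ratio of -1.82 (-2.33 to -1.35). Gata3, the Th2 regulator, was in 5 cells with Il17a for 6.94 expected. In the spleen 1 of the 14 cells with Il17a held Ifng, where 1.85 were expected.

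Iltifb, the near-identical neighbour of Il22, had 8 UMIs in the intestinal Ccl5-low cells and 4 in the spleen, beside 152 and 6 for Il22.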
